A study of Mus musculus with 33 samples.

Results

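The nuclear genes of the oxidative phosphorylation system were followed in mouse endothelial cells at 3 stages, with and without added RUNX1. They were chosen by name, from gene symbols that start with Nduf and a letter a, b, c, s or v before a digit (complex I), Sdha to Sdhd (complex II), Uqcr (complex III), Cox4 to Cox8 (complex IV) and Atp5 (complex V). Such a name was held by 88 of 25239 genes with expression values, and 81 of these reached 1 RPKM (reads per kilobase, scaled for the size of the library) in at least 2 of 13 libraries, as did 12546 genes in all. Complex I had 38 of the 81 genes, complex II 4, complex III 8, complex IV 14 and complex V 17. The other 7 stayed below that level: Cox6a2, Cox7b2, Cox7c-ps1, Cox8b, Cox8c, Ndufa11b and Ndufs5. The name rule also took Ndufa4, now usually assigned to complex IV, Cox7a2l, which joins complexes into supercomplexes, the isoform genes Ndufa4l2 and Ndufb4c, and the pseudogene Ndufs5-ps.

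Oxidative phosphorylation runs in the inner mitochondrial membrane. Complexes I and II take electrons from NADH and succinate, complex III passes them to cytochrome c, complex IV hands them to oxygen, and complex V, the ATP synthase, uses the proton gradient built by complexes I, III and IV to make ATP. Most subunits are encoded in the nucleus and a smaller set by mitochondrial DNA. None of 13 mitochondrially encoded genes was found by symbol among those with expression values, so these were not analysed here. Endothelial cells are known for drawing much of their ATP from glycolysis.

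Cells had been sorted as CD41-, CD45-, Ter119-, CD31+, VEC+ and cKIT low or positive, per the labels. The source was the whole embryo at E9.5, the whole fetus at E13.5 and, in adults of 4 to 6 weeks, the liver. Groups with 1 added copy of Runx1 (1Runx1) are labelled Cre with CKI/+, and those with 2 copies (2Runx1) Cre with CKI/CKI, where CKI is the allele that carries the added Runx1. Ctrl is labelled CKI/CKI or CKI/+ at E13.5 and in liver and CKI/+ at E9.5, with no Cre named, so Cre and the added copies coincide in every comparison with Ctrl. The strain was C57BL/6J-129Sv/J, crossed to B6C3F1 at E9.5, where females were superovulated. All groups had 2 mg of tamoxifen: pregnant females were injected 24 hours ahead of collecting embryos or fetuses, and adults took it by gavage. Which promoter drives Cre is not named in the labels.

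A single RNA library stood for E13.5 Ctrl, and 6 groups had 2 each, at 37754246 to 44540403 reads per library over the genes with expression values. Whether replicates are separate animals is not stated in the labels, so the p-values reflect just how far these libraries scatter, which may be technical. Runx1 was at 0.904 to 1.53 RPKM in the 5 Ctrl libraries and at 14.9 to 78.4 in the 8 Runx1 libraries. All 8 endothelial markers were above 0 in every library, and their summed level was 1402 to 1820 RPKM in the 9 embryonic and 3128 to 3617 in the 4 liver libraries. Markers of erythroid cells, whose surface marker Ter119 was sorted out, summed to 452 to 1189 RPKM at E13.5, most of it from the embryonic globin gene Hbb-y, against 45.2 to 92.3 at E9.5 and 5.76 to 11.4 in liver. The globin genes Hba-a1 and Hbb-bs are listed at 0 in every E9.5 and liver library, and Hbb-bs at E13.5 too, so these sums may undercount, and the liver sum is mostly Alas2, at 4.93 to 10.7. In these bulk samples fewer cells of a type and less RNA per cell cannot be told apart.

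The subunit genes were among the most highly expressed genes of these cells. The median over the 81 genes of the mean level in 13 libraries was 142 RPKM, against 10.5 over all 12546 genes tested, and the median gene lay at the 95.7th percentile. Level medians by complex were 103 RPKM for complex I, 149 for II, 190 for III, 235 for IV and 184 for V. Atp5b, the catalytic β subunit of ATP synthase, had the highest mean level of all at 937 RPKM, and Atp5g2, 1 of 3 genes for its c-ring subunit, the lowest of complex V at 91.7. The highest and lowest were Ndufa4 (511) and Ndufb4c (0.944) in complex I, Sdhb (179) and Sdhc (102) in complex II, Uqcrb (400) and Uqcrq (72.1) in complex III, and Cox6b1 (577) and Cox4i2 (0.720) in complex IV. At least 1 RPKM was reached in all 13 libraries by 76 of the 81 genes. The transcripts are short, with a median length of 754 bases against 2948 over all genes tested, and 28 of the 81 genes overlap another gene of the RefSeq annotation, whose reads an unstranded library cannot separate from theirs.

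Summed over its genes, each complex was lower in every liver library than in every embryonic library. For complex V the sum was 5321 and 5318 RPKM in E9.5 Ctrl, 5572 and 5462 in E9.5 1Runx1, 5393 in E13.5 Ctrl, 5607 and 5759 in E13.5 1Runx1, and 5420 and 5670 in E13.5 2Runx1. It was 2899 and 3040 RPKM in liver Ctrl and 3168 and 3188 in liver 2Runx1, with no overlap between liver and embryonic libraries. For complex I the sums ran from 4291 to 5139 RPKM in the embryonic and from 3776 to 4027 in the liver libraries, a smaller gap. The ratio of complex V to complex I within a library, which does not depend on how libraries are scaled to each other, was 1.12 to 1.25 in the embryonic and 0.755 to 0.816 in the liver libraries. The ratio of complex IV to complex I was 0.773 to 0.811 and 0.699 to 0.716. As a share of the reads recovered over all genes with expression values, the 81 genes took 1.46 to 1.75% in embryonic and 0.801 to 0.868% in liver libraries.

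**Figure D1:**
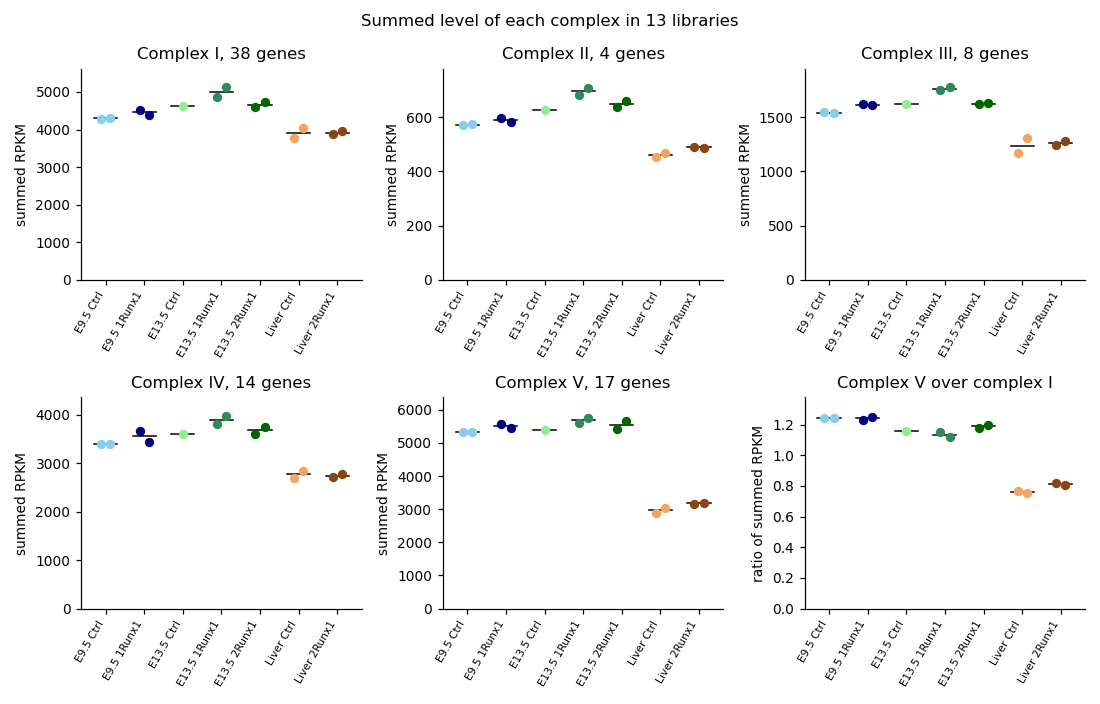
Summed RPKM of the genes of each complex, and the ratio of complex V to complex I, in each of 13 libraries by group; dots are libraries and black bars group means (E13.5 Ctrl has 1 library). The 4 liver libraries lie below all embryonic ones in every panel, with a complex V to complex I ratio of 0.755 to 0.816 against 1.12 to 1.25.

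Promoters of these genes are known to carry sites for NRF1, ETS factors such as GABPA, YY1 and the estrogen-related receptors (ERR). Of the 81 genes 65 matched a promoter in a table from RefSeq (GRCm38.p6), which spans 250 bases before to 50 after the start. Motifs were searched on both strands, as exact letters that do not stand for each other. GCGCANGCG (NRF1) was found at 19 of the 65 genes (29.2%, against 15.3% of 9852 tested genes with a promoter), among them 7 of 15 of complex V. CCGGAAG (ETS) was found at 17 (26.2%, against 20.1%), AAGATGGCG (YY1) at 7 (10.8%, against 3.60%) and TCAAGGTCA (ERR) at 2, Atp5g3 and Sdhd (3.08%, against 0.284%). TGTGGTT, the RUNX motif, was found at 1 gene, Uqcr11 (1.54%, against 4.26%). A match describes the letters and not a bound site. The 250 bases before the start are shown 5′ to 3′ on the gene's strand for 4 genes, with the matches in capitals: Atp5g2 (chr15:102671048-102671297, minus strand, NRF1 on both strands at -42 to -33), a c-ring gene that fell in liver; Atp5e (chr2:174464102-174464351, minus strand, ETS), the ε subunit, which fell too; Cox6a1 (chr5:115348959-115349208, minus strand, NRF1 and ETS), which was higher in liver; and Uqcr11 (chr10:80406822-80407071, minus strand, RUNX at -115 to -109 and ETS at -66 to -60), the carrier of the RUNX letters.
Atp5g2: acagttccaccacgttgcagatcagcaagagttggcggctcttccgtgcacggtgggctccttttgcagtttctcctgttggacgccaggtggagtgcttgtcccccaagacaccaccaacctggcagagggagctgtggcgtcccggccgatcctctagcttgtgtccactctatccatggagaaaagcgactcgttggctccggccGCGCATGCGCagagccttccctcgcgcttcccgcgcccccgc
Atp5e: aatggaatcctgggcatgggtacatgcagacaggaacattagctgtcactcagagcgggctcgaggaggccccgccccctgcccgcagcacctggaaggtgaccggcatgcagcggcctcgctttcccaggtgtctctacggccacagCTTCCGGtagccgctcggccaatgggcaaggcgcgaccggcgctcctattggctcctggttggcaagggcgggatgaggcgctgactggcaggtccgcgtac
Cox6a1: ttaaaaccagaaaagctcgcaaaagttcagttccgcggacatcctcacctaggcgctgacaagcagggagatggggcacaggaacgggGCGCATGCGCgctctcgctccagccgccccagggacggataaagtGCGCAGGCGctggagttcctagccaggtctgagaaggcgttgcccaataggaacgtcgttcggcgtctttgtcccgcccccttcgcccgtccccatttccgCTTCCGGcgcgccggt
Uqcr11: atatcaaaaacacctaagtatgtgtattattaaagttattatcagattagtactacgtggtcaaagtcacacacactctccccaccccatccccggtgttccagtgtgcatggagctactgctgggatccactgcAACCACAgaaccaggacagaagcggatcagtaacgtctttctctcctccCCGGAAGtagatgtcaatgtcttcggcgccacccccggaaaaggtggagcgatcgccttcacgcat

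Open chromatin was listed at nearly all of these starts. Within 250 bases of the start an ATAC-seq peak, which marks DNA open to a transposase, was listed for 63 of 65 genes (96.9%, exact Clopper-Pearson 95% interval 89.3 to 99.6) in each of the 5 embryonic lists, against 91.0 to 91.6% of the 9852 genes. In liver Ctrl the count was 60 (92.3%, interval 83.0 to 97.5, against 82.4%) and in liver 2Runx1 61 (93.8%, interval 85.0 to 98.3, against 82.1%); these intervals cover counting error only. Atp5g1 and Ndufa6 had no such peak in any of the 7 lists, which says only that none was listed for these expressed genes. Cox7b had none in both liver lists, Atp5l and Ndufc2 none in liver Ctrl, and Ndufb11 none in liver 2Runx1. Ranked by the authors' fold enrichment within its own list, the median peak of these genes lay at the 92.8th to 94.6th percentile in the embryonic lists, and at the percentiles 84.3 in liver Ctrl and 82.2 in liver 2Runx1. All 4 printed promoters had a peak in every ATAC-seq list. The peak over the start of Uqcr11 (chr10:80406485-80407365 in E13.5 Ctrl) had an authors' fold enrichment of 22.2 there, 23.8 in E13.5 1Runx1, and 10.2 and 8.24 in the liver Ctrl and 2Runx1 lists. That of Atp5e was 29.4 in E13.5 Ctrl, at the 99.7th percentile of its list, and 18.9 and 18.7 in the liver lists. The peak of Cox6b2, a complex IV isoform gene, was at 14.4 to 17.1 in the embryonic lists and 4.40 and 6.15 in the liver lists. Peaks of H3K4me1, a histone mark of enhancers and promoter flanks, were within 250 bases at 5 of 65 starts (7.69%, against 19.1%) in E13.5 Ctrl and at 22 (33.8%, against 45.8%) in E13.5 2Runx1, where the labels of a ChIP library and its input appear exchanged. Within 1000 bases the H3K4me1 shares were above those of all genes, at 76.9% against 60.1% in Ctrl and 89.2% against 84.3% in 2Runx1. Each list combined the replicates of a group, and the lists held different numbers of peaks. For ATAC-seq these were 80857 to 100268 in the embryonic and 39019 and 39469 in the liver lists. The shares and fold enrichments thus have no replicate check, and no change between lists was read from them.

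The adult liver endothelium had lower levels of most subunit genes than the E13.5 endothelium, and of all 17 genes of complex V. Between liver Ctrl and E13.5 Ctrl 57 of 81 genes were lower and 3 higher at an adjusted p under 0.05, where 38.6% of all genes tested were lower and 40.6% higher. The median log2 difference was -0.45, against 0.02 over all genes tested. By complex, 20 of 38 genes of complex I were lower and 2 higher (median -0.22), 3 of 4 of complex II lower (-0.48), 6 of 8 of complex III (-0.47), 11 of 14 of complex IV with 1 higher (-0.44), and 17 of 17 of complex V (-0.92). Against E9.5 Ctrl, 55 genes were lower and 12 higher in liver Ctrl (42.7% and 42.7% of all genes tested), with a median of -0.31 and, for complex V, 16 of 17 lower (-0.88). Every one of the 4 liver libraries was below every one of the 9 embryonic libraries for 53 of 81 genes (65.4%, against 33.8% of all genes tested) and above for 1, Ndufa8 (1.23%, against 36.6%). With library scaling by read totals alone, which lowers the median of all genes to -0.35 and -0.27, the splits were 78 lower and 0 higher against E13.5 and 73 lower and 1 higher against E9.5. Stage, organ, the route of tamoxifen and, at E9.5, the strain change together here and cannot be told apart. Macrophage markers summed to 120 to 142 RPKM in liver and 0.920 to 14.8 in embryonic libraries, and hepatocyte markers to 141 to 153 against 19.2 to 273. Other markers moved with the subunit genes: those of striated muscle summed to 5.88 to 7.13 RPKM in liver and to at least 16.4 in each embryonic library, with 5 of 7 genes tested lower than at E13.5 and Myl2 at 0 in liver, and those of pericytes and mesenchyme to 22.2 to 36.1 against 43.5 to 77.2, with 5 of 9 lower. All 6 erythroid genes tested were lower in liver than at E13.5 (median -3.78). The part of any of these cells in the differences was not tested.

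**Figure D2:**
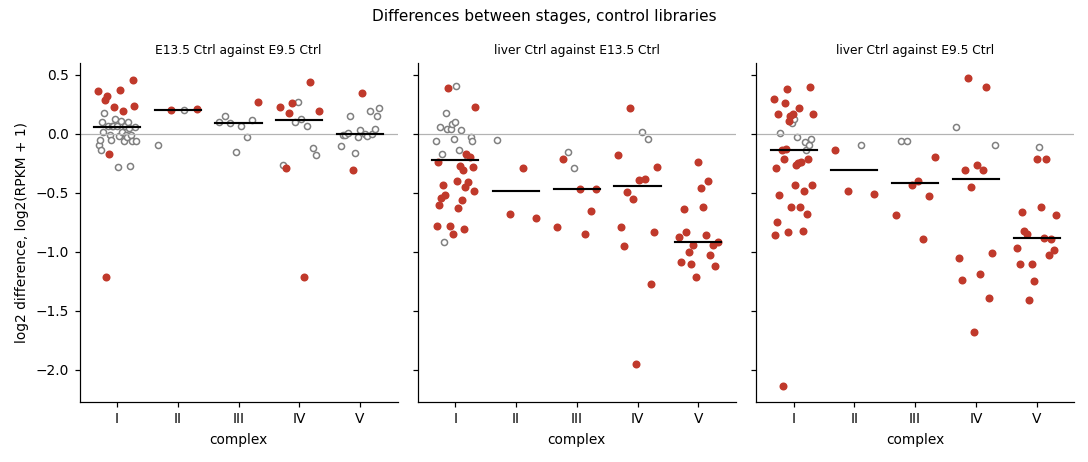
Log2 difference of each gene between control groups of 2 stages, by complex, with 1 dot per gene, red where the adjusted p was under 0.05, and a black bar at the complex's median. In liver Ctrl against E13.5 Ctrl all 17 genes of complex V are red and below 0, with a median of -0.92, while complex I has a median of -0.22.

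In complex V the catalytic head, the stalk and the membrane ring were all lower in liver. Atp5b (ENSMUSG00000025393, chromosome 10, 128083307 to 128090388), the catalytic β subunit, was at 1075 and 1073 RPKM in E9.5 Ctrl, 1105 and 1129 in E9.5 1Runx1, 1070 in E13.5 Ctrl, 1170 and 1093 in E13.5 1Runx1, 1106 and 1186 in E13.5 2Runx1, 508 and 496 in liver Ctrl and 599 and 576 in liver 2Runx1. No liver library came near an embryonic one, and Atp5b fell by 1.09 ± 0.06 on the log2 scale from E13.5 Ctrl to liver Ctrl (adjusted p = 3.59e-08). Atp5a1, the α subunit that surrounds the catalytic sites with β, was at 209 to 246 RPKM in liver and 390 to 480 in the embryonic libraries and fell by 0.87 ± 0.08 (adjusted p = 1.76e-06). Atp5o, the OSCP protein that ties the head to the peripheral stalk, fell from 295 RPKM to 133 and 136, a log2 difference of -1.12 ± 0.07 (adjusted p = 5.32e-08). Atp5e, the ε subunit of the central stalk, fell from 205 RPKM to 99.0 and 105 (adjusted p = 3.71e-07).

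The c-ring, which turns as protons pass, is made of 1 protein encoded by 3 genes, and all 3 were lower in liver. Atp5g3 was at 621 and 632 RPKM in E9.5 Ctrl, 660 and 659 in E9.5 1Runx1, 611 in E13.5 Ctrl, 554 and 581 in E13.5 1Runx1, 574 and 633 in E13.5 2Runx1, 256 and 270 in liver Ctrl and 274 and 289 in liver 2Runx1. It had the largest level of the 3 genes in every library, and its log2 difference between liver Ctrl and E13.5 Ctrl was -1.21 ± 0.07 (adjusted p = 3.32e-08). Atp5g1 (chromosome 11, 96072793 to 96075694) was at 215 and 210 RPKM in E9.5 Ctrl, 171 in E13.5 Ctrl, 75.8 and 82.6 in liver Ctrl and 109 and 107 in liver 2Runx1. It was lower at each later stage, by -0.31 ± 0.08 from E9.5 to E13.5 (adjusted p = 0.00691) and by -1.10 ± 0.08 from E13.5 to liver (adjusted p = 1.87e-07). Atp5g2 was at 88.6 to 128 RPKM in the embryonic and 50.9 to 61.8 in the liver libraries (-0.94 ± 0.08 between the later stages, adjusted p = 1.48e-06). Atp5j, coupling factor 6 of the peripheral stalk, was the 1 gene of complex V whose libraries overlapped, at 214 to 261 RPKM in liver and 244 to 338 in the embryonic libraries; this gene overlaps Gabpa, and its log2 difference of -0.46 ± 0.10 was called against E13.5 (adjusted p = 0.00102) and that of -0.11 ± 0.08 was not against E9.5 (adjusted p = 0.210).

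**Figure D3:**
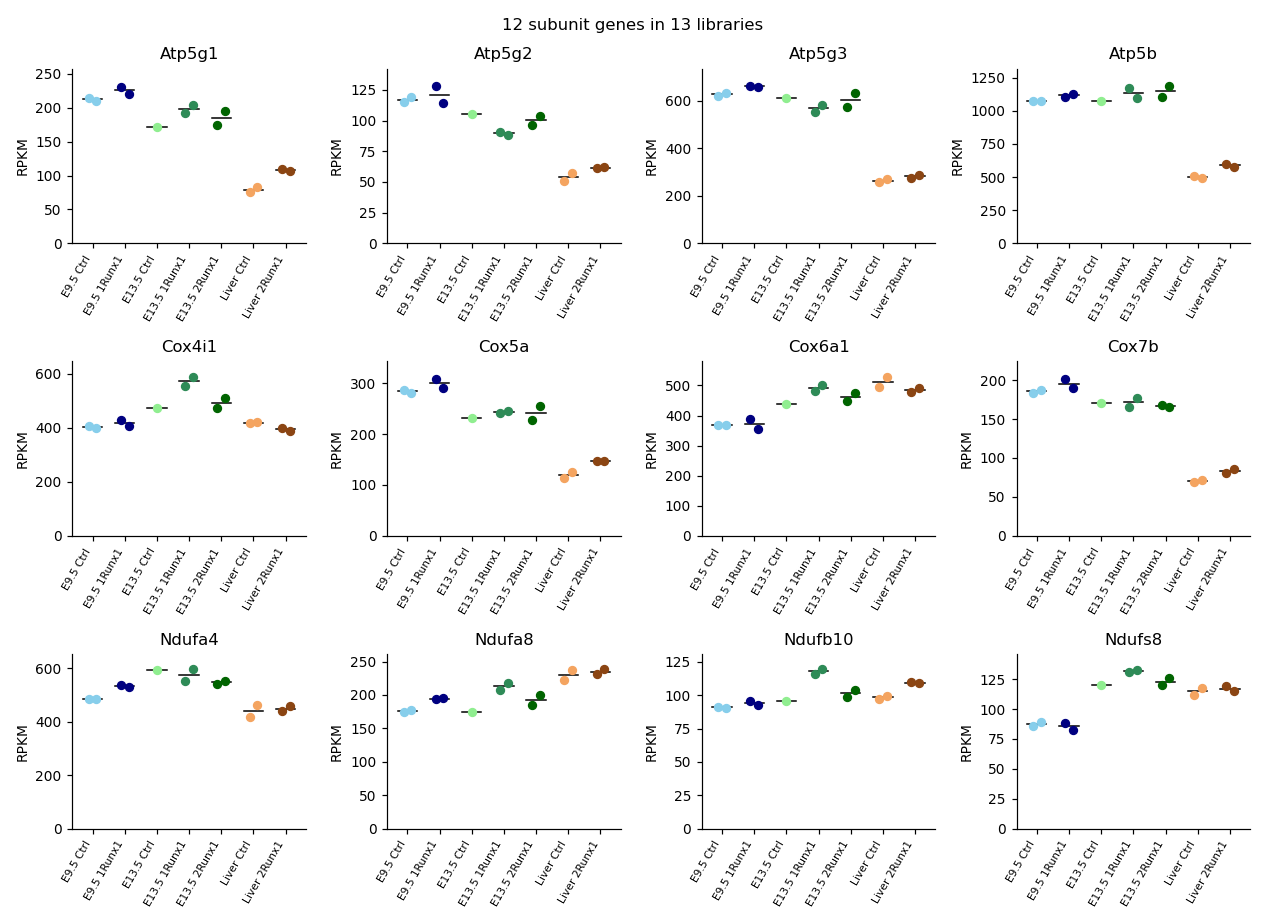
RPKM of 12 subunit genes in each of 13 libraries by group; dots are libraries and black bars group means (E13.5 Ctrl has 1 library). Atp5b, Atp5g1, Atp5g2, Atp5g3, Cox5a and Cox7b are lower in the 4 liver libraries than in all embryonic ones, and Ndufa8 is higher, at 222 to 239 against 175 to 218.

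Complex I was split. Of its 7 core genes, which carry the flavin and iron-sulphur clusters, 5 were lower in liver Ctrl than in E13.5 Ctrl (median -0.28). Ndufs1, the largest core subunit, was at 52.1 to 61.4 RPKM in the embryonic and 31.9 to 33.9 in the liver libraries and fell by 0.81 ± 0.05 (adjusted p = 1.35e-07). Ndufv1, the flavin-binding subunit that accepts electrons from NADH, fell by 0.28 ± 0.08 (adjusted p = 0.00822), from 89.0 RPKM to 73.8 and 72.3, and was not called between liver and E9.5 Ctrl (-0.04 ± 0.07, adjusted p = 0.590). Ndufa8 (ENSMUSG00000026895, chromosome 2, 36036324 to 36049338), an accessory subunit of the membrane arm, went the other way. It was at 175 and 177 RPKM in E9.5 Ctrl, 194 and 195 in E9.5 1Runx1, 175 in E13.5 Ctrl, 208 and 218 in E13.5 1Runx1, 185 and 200 in E13.5 2Runx1, 222 and 238 in liver Ctrl and 231 and 239 in liver 2Runx1. Liver Ctrl exceeded E13.5 Ctrl by 0.39 ± 0.06 (adjusted p = 0.000237), although with read totals alone the difference was -0.05. Ndufv3, a small accessory subunit, was the other called increase, from 34.0 RPKM to 39.0 and 41.3 (0.23 ± 0.06, adjusted p = 0.00681), and read -0.20 with read totals alone. Ndufa4 fell from 591 RPKM to 418 and 463 (-0.43 ± 0.07, adjusted p = 0.000188).

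In complex II the membrane anchors Sdhc and Sdhd and the iron-sulphur subunit Sdhb fell from E13.5 to liver, and the catalytic flavoprotein was not called there. Sdhb was at 171 and 173 RPKM in E9.5 Ctrl, 186 and 179 in E9.5 1Runx1, 198 in E13.5 Ctrl, 221 and 237 in E13.5 1Runx1, 223 and 218 in E13.5 2Runx1, 123 and 124 in liver Ctrl and 140 and 137 in liver 2Runx1. Its liver libraries were all below the embryonic ones, with a log2 difference of -0.68 ± 0.05 from E13.5 Ctrl (adjusted p = 7.25e-07). Sdhd fell by 0.71 ± 0.06 (adjusted p = 1.56e-06). Sdha, the flavoprotein that oxidises succinate, stayed between 147 and 166 RPKM in all 13 libraries. Its difference of -0.05 ± 0.06 from E13.5 Ctrl was not called (95% interval -0.18 to 0.08, adjusted p = 0.469). Against E9.5 Ctrl, at 166 and 162 RPKM, Sdha was called lower in liver Ctrl, at 147 and 151. That call was lost in 2 of 11 other settings, with differences from -0.47 to -0.12. The difference between these genes was not tested.

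In complex III the Rieske iron-sulphur protein had the largest decrease of the named genes. Uqcrfs1 was at 110 to 123 RPKM in the embryonic and 58.1 to 62.0 in the liver libraries, and its log2 difference from E13.5 Ctrl to liver Ctrl was -0.85 ± 0.06 (adjusted p = 2.67e-07). Uqcrc1, a core subunit, was at 203 RPKM in E13.5 Ctrl and 170 and 163 in liver Ctrl, a difference that was not called (-0.29 ± 0.14, adjusted p = 0.0783) but was against E9.5 (-0.43 ± 0.11, adjusted p = 0.00416). Uqcrq, known as a ubiquinone-binding protein, fell by 0.47 ± 0.06 (adjusted p = 3.06e-05). Uqcrb, the most abundant of the complex, overlapped between the stages, at 329 to 441 RPKM in liver and 378 to 418 in the embryonic libraries.

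Complex IV held large decreases, among them those of Cox7b and Cox5a. Cox7c went from 329 RPKM in E13.5 Ctrl to 183 and 186 in liver Ctrl, while Cox4i1 and Cox6a1 moved less. Cox7b (ENSMUSG00000031231, chromosome X, 106015700 to 106022450), a small nuclear subunit, was at 184 and 187 RPKM in E9.5 Ctrl, 201 and 190 in E9.5 1Runx1, 171 in E13.5 Ctrl, 166 and 177 in E13.5 1Runx1, 168 and 166 in E13.5 2Runx1, 69.1 and 71.5 in liver Ctrl and 80.5 and 85.6 in liver 2Runx1. Liver and embryonic libraries were far apart, with a log2 difference of -1.27 ± 0.06 from E13.5 Ctrl (adjusted p = 1.38e-08). Cox5a, a subunit of the matrix side that binds thyroid hormone metabolites, was at 228 to 308 RPKM in the embryonic and 114 to 148 in the liver libraries and fell by 0.95 ± 0.08 (adjusted p = 7.51e-07). Cox4i1, the ubiquitous form of the subunit through which ATP regulates the enzyme, fell by 0.18 ± 0.06 (adjusted p = 0.0269), from 473 RPKM to 416 and 422. That call was lost in 3 of 9 other settings. Cox6a1 (chromosome 5, 115345652 to 115348958), whose promoter is shown above, rose from 440 RPKM to 494 and 529 (0.22 ± 0.07, adjusted p = 0.0135), but read -0.11 with quantile normalization and -0.22 with read totals alone. Against E9.5 Ctrl the 5 largest increases in liver were Cox6a1 (0.47 ± 0.06), Cox7a2l (0.40 ± 0.06), Ndufs8 (0.40 ± 0.05), Ndufa8 (0.38 ± 0.05) and Ndufa1 (0.30 ± 0.07), all with an adjusted p of 0.00150 or less. With read totals alone Cox7a2l read 0.07, Ndufs8 0.06, Ndufa8 0.05 and Ndufa1 -0.04, and of the 5 only Cox6a1 kept its call.

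Between E9.5 and E13.5 the changes were smaller. In E13.5 Ctrl 17 of 81 genes were higher and 5 lower than in E9.5 Ctrl, where 22.3% of all genes tested were higher and 26.4% lower, and the median log2 difference was 0.07 against -0.02 over all genes. The split was 39 higher and 3 lower with quantile normalization and 33 higher and 3 lower with read totals alone. Complex I had 8 genes higher and 2 lower, complex II 2 higher, complex III 1 higher, complex IV 5 higher and 2 lower, and complex V 1 of each. Ndufs8, a core subunit of complex I with 2 iron-sulphur clusters, was at 85.6 and 88.9 RPKM in E9.5 Ctrl, 88.2 and 82.8 in E9.5 1Runx1 and 120 in E13.5 Ctrl, with 120 to 133 in the other E13.5 libraries. It rose by 0.46 ± 0.06 (adjusted p = 0.000173), and every E13.5 library was above every E9.5 one. Cox7a2l rose from 53.6 and 51.9 RPKM to 71.8 (0.44 ± 0.07, adjusted p = 0.000709). Ndufb6 (0.37 ± 0.12), Ndufa1 (0.36 ± 0.08) and Atp5j (0.35 ± 0.10), the next largest increases, had an adjusted p of 0.0245, 0.00447 and 0.0111. The call on Ndufb6 was lost in 3 of 9 other settings and that on Atp5j in 1. Cox5a fell from 287 and 281 RPKM to 232 (-0.29 ± 0.08, adjusted p = 0.0101), and Ndufa7, an accessory subunit of complex I, by 0.17 ± 0.06 (adjusted p = 0.0444), a call lost in 6 of 9 other settings, with differences down to -0.07. This comparison rests on a single E13.5 Ctrl library, assumed to vary like the others, and 10 and 13 genes were called without replicate 1 and replicate 2 of E9.5 Ctrl. Erythroid, hepatocyte and macrophage markers were higher at E13.5 for 6 of 6, 7 of 8 and 6 of 8 genes tested, and their part in these differences was not tested.

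Isoform genes of restricted expression were present at low levels. Ndufa4l2, a paralog of Ndufa4 known as a target of hypoxia-inducible factor, was at 3.96 and 4.70 RPKM in E9.5 Ctrl, 1.85 and 3.24 in E9.5 1Runx1, 1.29 in E13.5 Ctrl, 4.78 and 1.22 in E13.5 1Runx1, 1.27 and 0.936 in E13.5 2Runx1, 0.194 and 0.220 in liver Ctrl and 0.0579 and 0.0644 in liver 2Runx1, from 2 to 224 reads per library. All liver libraries were below all embryonic ones, and E13.5 1Runx1 replicate 1 stood well above the other E13.5 libraries. Its log2 difference was -1.21 ± 0.42 from E9.5 to E13.5 (adjusted p = 0.0355) and -2.14 ± 0.34 from E9.5 to liver (adjusted p = 0.000139). The pseudocount of 1 holds such differences of low genes down: the second, from a mean of 4.33 RPKM to 0.207, ran to -4.28 over 11 other settings, and the first lost its call in 4 of 9. Cox4i2, the isoform of Cox4i1 linked to low oxygen, was at 0.590 to 1.70 RPKM in embryonic and 0 to 0.129 in liver libraries (-1.05 ± 0.20 from E9.5 to liver, adjusted p = 0.000560, and as far as -3.70 in other settings). Cox6b2, best known from testis, was at 3.89 to 8.27 RPKM in the embryonic and 0.407 to 0.736 in the liver libraries and had the largest decrease from E13.5 to liver on the log2(RPKM + 1) scale, -1.95 ± 0.16 (adjusted p = 7.74e-07), though in other settings it reached -3.08 and that of Cox4i2 -3.19. Cox7a1, the heart and muscle partner of Cox7a2, was at 2.34 and 1.62 RPKM in E9.5 Ctrl, 0.279 in E13.5 Ctrl and 0.683 and 0 in liver Ctrl, and fell by 1.21 ± 0.33 from E9.5 to E13.5 (adjusted p = 0.0117) on at most 35 reads per library, a call lost in 3 of 9 other settings. Its liver and embryonic values overlapped. Cox6a2 and Cox8b, the other striated muscle isoforms, were at no more than 0.155 and 0.334 RPKM in any library. Striated muscle and pericyte markers, whose sums did not overlap between liver and embryonic libraries, were lower in liver Ctrl than in E9.5 Ctrl for 6 of 7 and 6 of 9 genes tested (medians -1.89 and -0.64), and their part in the isoform differences was not tested.

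**Figure D4:**
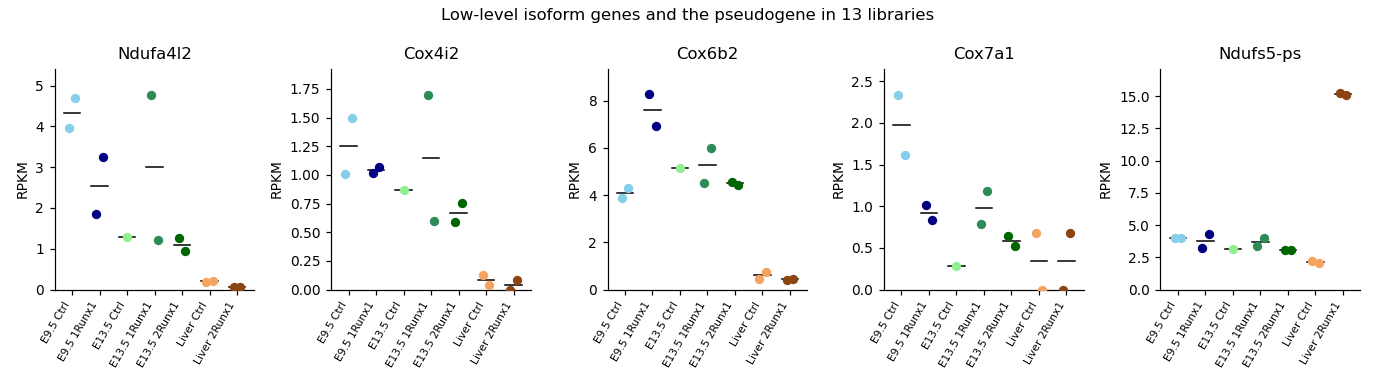
RPKM of 4 isoform genes and of the pseudogene Ndufs5-ps in each of 13 libraries by group; dots are libraries and black bars group means (E13.5 Ctrl has 1 library). Ndufa4l2, Cox4i2 and Cox6b2 are lowest in the 4 liver libraries, while Ndufs5-ps is at 15.2 and 15.1 in liver 2Runx1 and between 2.03 and 4.32 elsewhere.

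Few subunit genes were called between 1Runx1 and Ctrl at E9.5, in a share near that of all genes tested. At E9.5, 1 of 81 genes was higher in 1Runx1 than in Ctrl (0.861% of all genes tested) and 0 were lower (0.327%), while limma gave 7 genes an unadjusted p under 0.05, and voom on recovered reads called 0. The median log2 difference was 0.05, against 0.01 over all genes. The called gene was Cox6b2, at 3.89 and 4.28 RPKM in Ctrl and 8.27 and 6.92 in 1Runx1, which did not overlap (0.75 ± 0.13, adjusted p = 0.0225). The call was lost without any 1 of the 4 libraries, and in all in 8 of 11 other settings, with adjusted p from 0.0275 to 0.215 over the 11. None was called by limma among 10 core genes (Ndufs1, Ndufv1, Sdha, Sdhb, Uqcrc1, Uqcrfs1, Cox4i1, Cox5a, Atp5a1 and Atp5b), with 0 at an unadjusted p under 0.05 and a median of 0.06.

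At E13.5, 1 added copy came with slightly higher levels of 9 subunit genes from all 5 complexes. In E13.5 1Runx1 against Ctrl 9 of 81 genes were higher and 0 lower, where 6.34% of all genes tested were higher and 4.03% lower, 32 of the 81 had an unadjusted p under 0.05, and the median was 0.14 against 0.02 over all genes. With quantile normalization the split was 3 higher and 2 lower (median 0.07). Ndufb10 (ENSMUSG00000040048, chromosome 17, 24722060 to 24724423), an accessory subunit of the membrane arm of complex I, was at 95.9 RPKM in Ctrl, 116 and 120 in 1Runx1 and 98.8 and 104 in 2Runx1. Both 1Runx1 libraries lay above the other E13.5 libraries, and the difference from Ctrl was 0.30 ± 0.05 (adjusted p = 0.00930). Cox4i1 was at 473 RPKM in Ctrl, 554 and 588 in 1Runx1 and 471 and 511 in 2Runx1 (0.27 ± 0.06, adjusted p = 0.0284). Ndufa8 (0.28 ± 0.06, adjusted p = 0.0262), Ndufb11 (0.27 ± 0.06, adjusted p = 0.0223) and Atp5o (0.27 ± 0.07, adjusted p = 0.0319) were the other large increases. Sdhb rose by 0.21 ± 0.05 (adjusted p = 0.0413) and Uqcrq by 0.23 ± 0.06 (adjusted p = 0.0399), calls each lost in 6 of 9 other settings, and Ndufa7 and Ndufa12 completed the 9. Without 1Runx1 replicate 2 the number was 2, and in a fit of the compared groups alone it was 0. The fit of the compared groups alone also called 0 of all genes tested in either direction, so its 0 says nothing of these genes in particular. In the same libraries markers of other cells were lower in 1Runx1: 4 of 6 erythroid genes tested (summed level 1158 RPKM in Ctrl against 452 and 564), 6 of 8 hepatocyte genes and 5 of 8 macrophage genes (14.8 against 5.58 and 5.67). Hbb-bs was at 0 in all E13.5 libraries. The part of these cells in the result was not tested.

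With 2 added copies no subunit gene was called at E13.5, where few of all genes tested were called. Against the same Ctrl library 2Runx1 had 0 genes higher and 0 lower by limma, where 0.151% of all genes tested were higher and 0.120% lower; 3 genes had an unadjusted p under 0.05, voom on recovered reads called 0, and the median was 0.03. The smallest p-values belonged to Sdhb (0.16, adjusted p = 0.270), Ndufa13, an accessory subunit of complex I (0.17, adjusted p = 0.287), and Ndufb6 (-0.28, adjusted p = 0.356). Set against 1Runx1, which shares the stage and the presence of Cre, 2Runx1 had 4 genes lower and 0 higher, where 3.16% of all genes tested were lower and 2.17% higher, with a median of -0.10. Ndufb10 fell by 0.22 ± 0.04 (adjusted p = 0.0204) and Cox4i1 by 0.22 ± 0.05 (adjusted p = 0.0413), as their levels above show. Sdhc, the other membrane anchor of complex II, was at 130 and 126 RPKM in 1Runx1 and 101 and 114 in 2Runx1 (-0.25 ± 0.06, adjusted p = 0.0491), and Ndufb4 at 108 and 111 against 97.4 and 91.5 (-0.21 ± 0.05, adjusted p = 0.0430). Neither pair overlapped. These are the libraries of the comparison above, so the lists are not independent of each other. Without 1Runx1 replicate 1 the number lower was 7, without replicate 2 it was 2 and without 2Runx1 replicate 1 it was 1. It was 1 with no filter, quantile normalization, read totals alone or a replicate block, and 0 with the compared groups alone. That last fit called 0 higher and 4 lower of all genes tested, so its 0 says little of these genes in particular. The calls on Ndufb4 and Sdhc were each lost in 9 of 11 other settings, that on Cox4i1 in 6 and that on Ndufb10 in 4. In this comparison 6 of 8 hepatocyte markers were higher in 2Runx1, whose erythroid sums were 1189 and 571 RPKM, and their part was not tested.

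In adult liver endothelium 2 added copies left the median of the 81 genes at 0.01, against 0.02 over all genes, with 9 genes higher and 1 lower, where 17.1% of all genes tested were higher and 8.14% lower. The split was 7 higher and 5 lower with quantile normalization (median -0.02). The number called was 4 without Ctrl replicate 1 or without 2Runx1 replicate 2, and 5 without 2Runx1 replicate 1. Atp5g1 was at 75.8 and 82.6 RPKM in Ctrl and 109 and 107 in 2Runx1, without overlap, and rose by 0.44 ± 0.06 (adjusted p = 0.000456), a call kept in all 11 other settings. Cox5a was at 114 and 126 RPKM in Ctrl and 147 and 148 in 2Runx1 (0.30 ± 0.06, adjusted p = 0.00562). Atp5b rose from 508 and 496 RPKM to 599 and 576 (0.23 ± 0.05, adjusted p = 0.00740), Cox7b by 0.24 ± 0.05 (adjusted p = 0.00669) and Atp5pb, the b subunit of the peripheral stalk, by 0.25 ± 0.07 (adjusted p = 0.0261). All 5 had fallen between E13.5 Ctrl and liver Ctrl, a comparison that shares the liver Ctrl libraries, and all 5 stayed below every embryonic library in liver 2Runx1. Sdhc, Sdhb and Ndufb10 were also higher, and Uqcrq, at 55.7 and 60.4 RPKM in Ctrl and 52.1 and 52.1 in 2Runx1, fell by 0.15 ± 0.05 (adjusted p = 0.0469). The calls on Sdhc, Uqcrq and Sdhb were less stable, lost in 8, 7 and 6 of 11 other settings, and that on Atp5pb was lost in 4. The call on Ndufb10 was not followed over the settings.

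**Figure D5:**
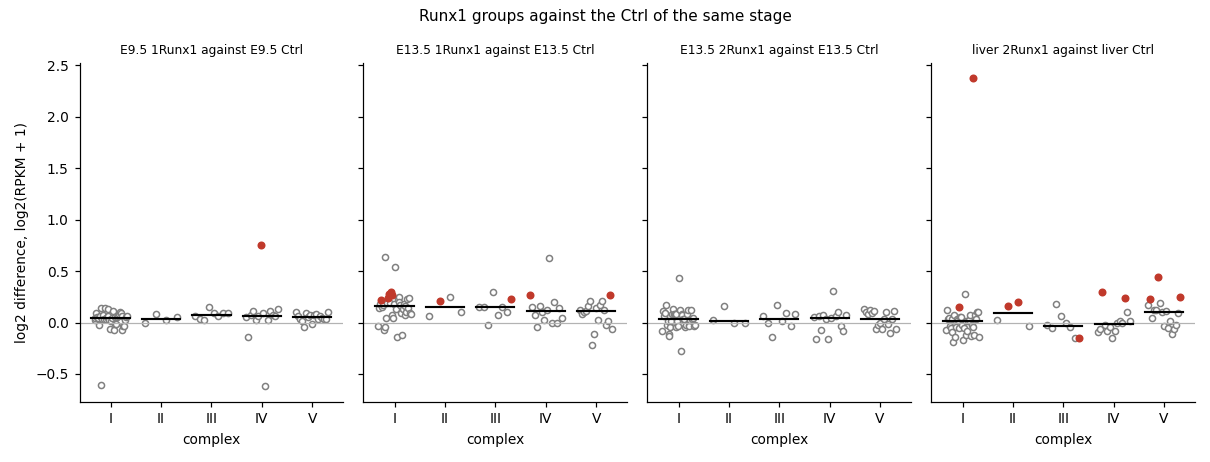
Log2 difference of each gene between a Runx1 group and its comparison group, by complex, with 1 dot per gene, red where the adjusted p was under 0.05, and a black bar at the complex's median. Most dots are open and near 0, 9 genes are red and above 0 in E13.5 1Runx1, 0 are red in E13.5 2Runx1, and Ndufs5-ps stands apart at 2.37 in liver 2Runx1.

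The largest difference with Runx1 was in a pseudogene. Ndufs5-ps lies on chromosome 16 (42955580 to 42956079, GRCm38.p6) within the gene Zbtb20. It was at 4.03 and 3.96 RPKM in E9.5 Ctrl, 3.24 and 4.32 in E9.5 1Runx1, 3.15 in E13.5 Ctrl, 3.35 and 3.96 in E13.5 1Runx1, 3.07 and 3.04 in E13.5 2Runx1, 2.22 and 2.03 in liver Ctrl and 15.2 and 15.1 in liver 2Runx1, on up to 535 reads. The liver 2Runx1 libraries were far above all others, by 2.37 ± 0.11 over liver Ctrl on the log2 scale (adjusted p = 1.33e-07). Zbtb20, the gene around it, was not higher with Runx1, at 22.8 and 22.9 RPKM in liver Ctrl and 18.5 and 20.1 in liver 2Runx1. Its parent gene Ndufs5, an accessory subunit of complex I, is listed at 0 in every library, so the reads of the gene and of its copies cannot be assigned here, and the value of Ndufs5-ps is uncertain as a measure of this locus. The length recovered for Ndufs5-ps from its RPKM values, 984 bases, also exceeds the interval given above. No ATAC-seq or H3K4me1 peak was listed within 5000 bases of that interval in any of the 9 lists.

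Whether the response to Runx1 differed between stages was tested directly. For 1 copy at E13.5 against E9.5, limma called 0 genes higher (1.16% of all genes tested) and 0 lower (1.10%), with 16 at an unadjusted p under 0.05 and 0 called by voom on recovered reads. The smallest p-values were those of Ndufb10 (0.25, adjusted p = 0.0917), Cox6b2 (-0.73, adjusted p = 0.0928) and Ndufb7 (0.30, adjusted p = 0.119). Without E13.5 1Runx1 replicate 2 the number called was 2. For 2 copies in liver against E13.5, 2 genes were higher (8.20% of all genes tested) and 0 lower (2.89%): Ndufs5-ps (2.40 ± 0.17, adjusted p = 1.55e-05) and Ndufb6 (0.56 ± 0.15, adjusted p = 0.0420). Ndufb6, an accessory subunit of complex I, was at 204 RPKM in E13.5 Ctrl and 164 and 173 in E13.5 2Runx1, and at 116 and 149 in liver Ctrl and 152 and 170 in liver 2Runx1. Neither effect was called on its own, and the call on their difference was lost in 7 of 13 other settings (adjusted p from 0.00244 to 0.142). The number called was 5 without E13.5 2Runx1 replicate 2, 4 without liver Ctrl replicate 2, and 1 without liver Ctrl replicate 1 or either liver 2Runx1 replicate.

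Other genes of mitochondrial energy supply were read from lists chosen by function, beside 38.6% of all genes tested lower and 40.6% higher from E13.5 Ctrl to liver Ctrl. There 14 of 18 genes of the citric acid cycle and pyruvate dehydrogenase were lower and 0 higher (median -0.57), with Idh2, the mitochondrial NADP-linked isocitrate dehydrogenase, going from 219 RPKM to a mean of 42.2 (-2.35 ± 0.07, adjusted p = 4.07e-10). All 6 respiratory chain genes outside the name pattern were lower (median -0.89), among them Cycs, cytochrome c (-1.05 ± 0.06, adjusted p = 2.54e-08), and Ndufab1, the acyl carrier protein of complex I (-1.05 ± 0.10, adjusted p = 3.21e-06). Of 43 assembly factors 16 were lower, a share near that of all genes, and 9 higher (median -0.10), and Surf1, which acts in building complex IV, rose from 16.6 RPKM to a mean of 40.7 (1.24 ± 0.08, adjusted p = 6.96e-08). Of 14 regulators of mitochondrial biogenesis 6 were lower and 3 higher; Esrra, the estrogen-related receptor α, rose from 4.16 RPKM to a mean of 10.9 (1.21 ± 0.15, adjusted p = 1.82e-05) and Pprc1, a coactivator of the PGC-1 family, fell by 0.73 ± 0.09 (adjusted p = 1.90e-05). Glycolysis genes were lower for 11 of 15 and higher for 2 (median -0.93), and 77 of 80 cytosolic ribosomal protein genes were lower (median -1.27). From E9.5 to E13.5 glycolysis genes were lower for 11 of 15 (26.4% of all genes tested; median -1.28), with Ldha, lactate dehydrogenase A, going from a mean of 2334 RPKM to 671 (-1.80 ± 0.06, adjusted p = 1.06e-08), while the subunit genes had a median of 0.07.

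In liver 2Runx1 the same lists were read beside 17.1% of all genes tested higher and 8.14% lower. Glycolysis genes were higher for 8 of 15 and lower for 2 (median 0.26), with Eno1, α-enolase, going from a mean of 141 RPKM to 217 (0.62 ± 0.05, adjusted p = 8.94e-06). Of the citric acid cycle and pyruvate dehydrogenase genes 5 of 18 were higher and 0 lower (median 0.13), led by Idh3a, a subunit of the NAD-linked isocitrate dehydrogenase (0.48 ± 0.06, adjusted p = 0.000222). Slc25a5, which exchanges ADP and ATP across the inner membrane, rose from a mean of 374 RPKM to 525 (0.49 ± 0.05, adjusted p = 6.79e-05), and 4 of the 6 chain genes outside the name pattern were higher. Assembly factors were higher for 9 of 43 and lower for 2, with the share higher near that of all genes, and cytosolic ribosomal protein genes higher for 41 of 80 and lower for 2. Pprc1 (0.49 ± 0.07, adjusted p = 0.000666) and Polg, the mitochondrial DNA polymerase (0.39 ± 0.11, adjusted p = 0.0296), were the 2 called of 14 regulators. The difference between these lists was not tested. In E13.5 1Runx1 the lists were read beside 6.34% of all genes tested higher and 4.03% lower. The citric acid cycle list had 1 of 18 genes higher, a share near that of all genes: Mdh2, mitochondrial malate dehydrogenase (0.27 ± 0.07, adjusted p = 0.0308). Assembly factors had 5 of 43 higher and 1 lower. Glycolysis had 0 called in either direction by limma, with 2 of 15 at an unadjusted p under 0.05.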

How the data were processed

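RNA was measured in 13 libraries made with a transposase-based kit that does not mark strand. The authors deposited gene expression as RPKM, and the submitters' processing notes name STAR 2.7.3a, featureCounts, Subread 2.0.0, edgeR, bcl2fastq 2.20 and Trim Galore 0.6.4 without giving roles. RPKM values were whole multiples of 1 read for 100% of the 20720 genes above 0 (within 0.001 reads), which a gene seen in 1 library meets in any case. These gave reads per library and a scaling factor of 0.828 (liver) to 1.13 (E13.5) beyond the read total. The authors deposited peak lists with a score, a fold enrichment as a ratio, and −log10 p and −log10 q values per peak, 1 list for the replicates of a group. Bowtie2 2.3.5.1, MACS2 2.1.4 and SAMtools 1.1, with the builds mm10 and GRCm38, are named in the submitters' processing notes.

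Limma 3.58.1 in R 4.3.3 was fitted to log2(RPKM + 1), which understates the change of low genes, for the 12546 genes with RPKM of at least 1 in at least 2 libraries. It used 7 group means and an intensity trend, with 6 residual and 10.3 total degrees of freedom. Tests were two-sided, adjusted by Benjamini-Hochberg over all genes tested, and called at an adjusted p under 0.05. Errors after ± are standard errors of log2 differences, and signed differences are the first group minus the second. Python 3.11.15, pandas 2.3.3, numpy 2.4.6, scipy 1.17.1 and matplotlib 3.10.9 were used for counts, peaks, motifs and figures. A peak was counted at a start when at least 1 base lay within 250 bases of it. The fit was tested on simulated data. Alternatives were a pseudocount of 0.1, no filter, quantile normalization, limma-voom on recovered reads, a replicate block, the compared groups alone, each replicate left out, a window of 1000 bases and the 50000 peaks of smallest q. Read totals alone, and leaving out Ndufs5-ps and Ndufb4c, were chosen after seeing the data. The genes and lists were chosen with earlier results of these data known. Named genes are, per comparison, the called ones with the 5 largest increases and decreases (the 3 smallest p where none was called), 10 core genes, the isoforms and the highest and lowest of each complex. Genes of mitochondrial DNA, which were not found by symbol, ChIP inputs and the −log10 p column were not used here. For H3K4me1 in 2Runx1, 1 ChIP library and its input seem to carry each other's description, so that peak list is in doubt.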

Additional observations from a re-analysis of the deposited data

Results flagged for a closer look

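The effect of 2 added Runx1 copies differed between liver and E13.5 for 2 genes by a direct test of the difference with limma. Ndufs5-ps had a difference of 2.40 ± 0.17 (adjusted p = 1.55e-05), from an effect of 2.37 in liver and -0.03 at E13.5. It was called in all 13 other settings, with differences from 2.24 to 2.87. Ndufb6 had a difference of 0.56 ± 0.15 (adjusted p = 0.0420), from effects of 0.28 in liver (adjusted p = 0.0556) and -0.28 at E13.5 (adjusted p = 0.356), against a single E13.5 Ctrl library. It was called in 6 and lost in 7 of 13 other settings.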

How the results depend on the processing

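In all 249 counts, medians, peak numbers and ratios of complex V to complex I were recomputed, of which 194 stayed and 55 moved. To stay, a gene count had to lie within 1.5 times its value. A median had to lie within 0.04, the pooled within-group SD of library medians. For a peak number the share had to lie in the exact 95% interval of the main count, and for a ratio within 1 SD over its libraries. Of 89 pairs of a named gene and a comparison that called it, 47 kept the call in every setting run and 42 lost it in at least 1. With each replicate left out in turn, the genes called and the medians ran from 0 to 0 and 0.02 to 0.08 in E9.5 1Runx1, 2 to 10 and 0.10 to 0.17 in E13.5 1Runx1, 0 to 0 and 0.03 to 0.05 in E13.5 2Runx1, 1 to 7 and -0.13 to -0.06 in 2Runx1 against 1Runx1, and 4 to 7 and -0.02 to 0.04 in liver 2Runx1. They ran from 10 to 13 and 0.05 to 0.06 in E13.5 against E9.5, 55 to 58 and -0.49 to -0.41 in liver against E13.5, and 58 to 65 and -0.40 to -0.29 in liver against E9.5. For the differences of effects they ran from 0 to 2 and 0.05 to 0.12 with 1 copy, and 1 to 5 and -0.07 to 0.01 with 2 copies. Where this left 1 library in a group, it was assumed to vary like the other groups.

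In E9.5 1Runx1 the count was 0 with a pseudocount of 0.1, no filter, limma-voom on recovered reads and the compared groups alone, and the median was 0.01 with quantile normalization. In E13.5 1Runx1 the count was 5 with quantile normalization (median 0.07), 5 with read totals alone and 0 with the compared groups alone, a fit that called 0 of all genes tested. In 2Runx1 against 1Runx1 it was 1 with no filter, quantile normalization (median -0.04) and read totals alone, and 0 with the compared groups alone, a fit that called 0 higher and 4 lower of all genes tested. In liver 2Runx1 it was 6 with voom. In E13.5 against E9.5 it was 42 with quantile normalization and 36 with read totals alone (medians 0.17 and 0.17), and 36 with the compared groups alone. The median in liver was -0.61 with quantile normalization and -0.89 with read totals alone against E13.5, and -0.39 and -0.64 against E9.5. Relative to the median of all genes, the values with read totals alone were -0.54 and -0.38, against -0.47 and -0.30. Signs turned for Cox6a1 (-0.11 with quantile normalization, -0.22 with read totals alone), Ndufv3 (-0.20) and Ndufa8 (-0.05) against E13.5 and for Ndufa1 (-0.04) against E9.5, all with read totals alone unless stated. For the 2-copy effect in liver against E13.5 the count was 1 with no filter, with the compared groups alone and without Ndufs5-ps and Ndufb4c. Within 1000 bases of the start, H3K4me1 peaks were at 50 genes in Ctrl (76.9%, against 60.1% of all genes with a start) and 58 in 2Runx1 (89.2%, against 84.3%). These shares lay above those of all genes, while within 250 bases they lay below. The cause of these changes was not tested.

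Replicate numbers did not pair the libraries: correlations of same-numbered deviations were -0.06 to 0.11. With the replicate block the counts were 4 in E13.5 1Runx1, 1 in 2Runx1 against 1Runx1 and 4 for the 2-copy effect in liver against E13.5. The 50000 peaks of smallest q could not be taken from the liver ATAC-seq lists and the H3K4me1 Ctrl list, which are shorter.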
